A study of Rattus norvegicus with 12 samples.

Results

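The natriuretic peptides and the enzymes of cyclic GMP signalling were examined in rat aorta and semilunar valve as a set of 9 genes. They were 2 peptide genes (Nppa and Nppb), 3 receptor genes (Npr1, Npr2 and Npr3), the 2 subunits of soluble guanylyl cyclase (Gucy1a1 and Gucy1b1), a phosphodiesterase (Pde5a) and a protein kinase (Prkg1). Each gene was represented by every probe set of the array that carried its symbol and no other. This gave 10 probe sets for 8 of the 9 genes, out of 20826 such probe sets for 14217 genes in all. No probe set of this kind carried the symbol Prkg1, so the kinase was not analysed here. Of the 10 probe sets, 9 passed the filter on low signals and were tested. The probe set of Npr3 did not pass and is described by its signals.

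The peptides ANP (from Nppa) and BNP (from Nppb) are hormones of heart muscle cells, made in the atria and, in fetal and stressed hearts, in the ventricles as well. They bind the receptor NPR-A (Npr1), whereas C-type natriuretic peptide (Nppc) binds NPR-B (Npr2), and both receptors make cyclic GMP through a guanylyl cyclase domain inside the cell. NPR-C (Npr3) takes the peptides up and clears them. Nitric oxide raises cyclic GMP by another route, through soluble guanylyl cyclase, a dimer of an alpha and a beta subunit. In vascular smooth muscle cyclic GMP activates the kinase PKG (Prkg1), which relaxes the cell, and PDE5 (Pde5a) breaks cyclic GMP down.

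RNA came from Wistar rats without a stated genetic change or treatment, and 12 Affymetrix arrays formed 4 groups of 3 by their titles. Neonatal aorta and neonatal valve were taken within 24 h of birth, and adult aorta and adult valve came from rats labelled as male adults. The aorta samples were the proximal vessel, and the valve samples held both semilunar valves, the aortic and the pulmonary. The study asks how gene expression differs between these tissues and ages, as far as its title and groups state a purpose. The labels of 6 samples conflicted, since arrays titled adult aorta had description and tissue entries for neonatal valve, and arrays titled neonatal valve had entries for adult aorta. Groups here follow the titles. The signal of Igf2, a growth factor gene that is high around birth, was 6189 to 20768 on arrays titled neonatal and 184 to 879 on arrays titled adult. Whether the 3 arrays of a group stem from different animals is not stated, so p-values measure only the spread between these samples, which may be technical.

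Some properties of the arrays moved with tissue. The beta-actin ratio of 3′ to 5′ signal, a common sign of RNA quality, was 1.40 to 2.59 over the 6 arrays of aorta and 7.24 to 14.0 over the 6 of valve. Xist, the RNA of the inactive X chromosome, read at most 297 in aorta and at least 10998 in valve, and the Y-linked Eif2s3y at least 1379 in aorta and at most 134 in valve. On both genes the adult valve arrays, labelled male, read as female. On neonatal aorta arrays 2 and 3 the control RNAs added in labelling read 5.82 to 54.6, against 137 to 13879 on the other 10 arrays. Signals up to 54.6 are therefore treated below as the level of an absent RNA. The part of tissue, sex and RNA quality in a difference between valve and aorta cannot be told apart.

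The promoters of the peptide genes are shown because Nppa and Nppb gave the largest differences of the set and are neighbours, with 0 genes between them on chromosome 5 in the order of RefSeq. The windows are the 250 bases before the transcription start, from RefSeq on build GRCr8, at chr5:163711934-163712183 for Nppa and chr5:163699758-163700007 for Nppb, both read on the plus strand. The table held a promoter for 8 of the 9 genes. Capitals mark GATAA, the core of GATA factor sites, searched on both strands.
Nppa: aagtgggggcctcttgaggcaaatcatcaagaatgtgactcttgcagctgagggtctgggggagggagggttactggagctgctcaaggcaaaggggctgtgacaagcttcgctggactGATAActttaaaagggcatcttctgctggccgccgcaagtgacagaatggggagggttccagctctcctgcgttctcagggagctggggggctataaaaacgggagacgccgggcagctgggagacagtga
Nppb: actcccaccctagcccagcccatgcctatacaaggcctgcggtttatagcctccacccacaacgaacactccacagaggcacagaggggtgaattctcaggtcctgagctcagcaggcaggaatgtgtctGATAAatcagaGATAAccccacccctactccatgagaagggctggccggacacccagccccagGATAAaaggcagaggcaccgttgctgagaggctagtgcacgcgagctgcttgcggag
The Nppa window held 1 GATAA, whose first base lay 131 bases before the start. The Nppb window held 3, at 120, 109 and 57 bases before the start. Of 33469 rat promoters cut to the same length, 23.5% held at least 1 GATAA and 0.762% at least 3. AAGTG, a core of NKX2-5 sites, occurred 2 times in Nppa (at 250 and 95 bases) and 0 times in Nppb, and 10.5% of promoters held at least 2. GGAATG, a core of TEAD sites, occurred 1 time in Nppb (at 131 bases) and 0 times in Nppa, against 12.1% of promoters. TATAAA was found 39 bases before the start of Nppa and, on the opposite strand, at 208 bases in Nppb, and 12.9% of promoters held it. None of these matches overlapped another, and a match describes letters, not binding.

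Both peptide genes were bright on the neonatal valve arrays and dim on all aorta arrays, and on adult valve arrays they ran from dim to bright. The Nppa signal was 129, 165 and 32.1 on neonatal aorta arrays 1, 2 and 3, and 13.5, 33.0 and 24.1 on the adult aorta arrays. On neonatal valve arrays it was 3848, 20377 and 12448, and on adult valve arrays 30.9, 19398 and 115. Every neonatal valve array thus lay above every aorta array, whereas adult valve arrays 1 and 3 lay within the range of the aorta arrays and array 2 within that of the neonatal valve. Nppa was higher in neonatal valve than in neonatal aorta by 6.81 ± 1.82 in log2 (SE, n = 3 per group; limma, adjusted p = 0.015), the 12th largest difference by size of 18552 probe sets tested. The difference was 6.08 with an adjusted p of 0.06 without neonatal aorta 3. With the presence of the control RNAs as a block, which rests on neonatal aorta 1 alone, it was 6.26 with an adjusted p of 0.18, and over the 10 arrays that held those RNAs it was 6.26 with an adjusted p of 0.22.

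Between adult valve and adult aorta the Nppa difference was 4.22 ± 1.82 and missed the threshold (limma, adjusted p = 0.089), with an SD of 4.91 in log2 over the adult valve arrays. All 3 adult aorta signals were at the level of an absent RNA, against which adult valve was at least 7.50-fold higher in mean. Leaving out 1 array at a time, the fitted difference ran from 1.44 to 6.08 (limma, adjusted p from 0.022 to 0.24). It was lowest without adult valve 2 and highest without adult valve 1 (adjusted p = 0.022). The age difference was -4.60 ± 1.82 in valve (adjusted p = 0.13) and -2.0 ± 1.82 in aorta (adjusted p = 0.56), where 4 of the 6 signals lay at the level of an absent RNA. Without adult valve 2, the bright array, the valve difference was -7.38 (adjusted p = 0.0026). The call for Nppa by age in valve therefore turned on 1 array.

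Nppb, the BNP gene, read 26.8, 31.2 and 56.2 on neonatal aorta arrays and 6.24, 25.7 and 18.1 on adult aorta arrays. Its signal was 2051, 3846 and 3135 on neonatal valve arrays and 106, 2608 and 1275 on adult valve arrays. The aorta signals were at or next to the level of an absent RNA, and all 6 valve arrays lay above all 6 aorta arrays. Nppb was higher in valve by 6.34 ± 0.97 in log2 in neonates (limma, adjusted p = 0.00086) and by 5.63 ± 0.97 in adults (adjusted p = 0.0014). Since the aorta level is only a bound, neither is an exact fold, and the adult difference reads as at least 12.9-fold when set against 54.6. Both calls held in all 20 alternative settings that keep the groups, and with the control RNAs as a block the neonatal difference was 6.77 (adjusted p = 0.024).

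By age, Nppb differed by -2.05 ± 0.97 in valve (limma, adjusted p = 0.20, 95% interval -4.17 to 0.08) and by -1.34 ± 0.97 in aorta (adjusted p = 0.45). The valve groups overlapped, and the aorta groups, with 5 of 6 signals at the level of an absent RNA, have no order. Nppa overlapped between neonatal and adult valve and between adult valve and each aorta group. Across the 12 arrays, which share 4 groups, the log2 signals of Nppa and Nppb correlated at r = 0.88.

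**Figure D1:**
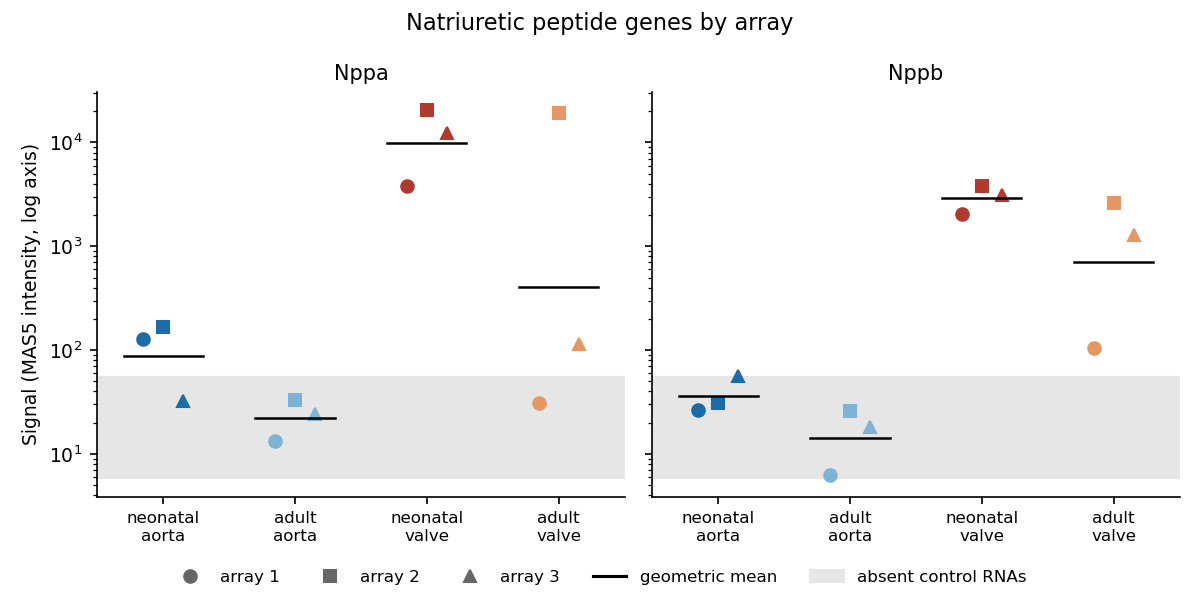
Signals of Nppa and Nppb on each of the 12 arrays by group, on a log axis, with the geometric mean of each group. The grey band spans the control RNAs on the arrays that lack them. Nppb reads at least 106 on all valve arrays and at most 56.2 on all aorta arrays, while Nppa on adult valve arrays runs from 30.9 to 19398.

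The genes of heart muscle were measured on the same arrays, from a list of 13 of which 12 had a probe set. Their summed signal lay between 113172 and 125495 in neonatal valve and between 49401 and 79425 in neonatal aorta. In adult valve it ran from 6120 to 96592. For adult aorta 1, 2 and 3 it was 31122, 1626 and 2344, so the high value came from array 1 alone. That array also had a high sum of 7 skeletal muscle genes, at 143942 against 17852 and 12190 for adult aorta 2 and 3. Whether skeletal muscle RNA added to the heart muscle sum of adult aorta 1 was not tested. Myh6, the alpha myosin heavy chain of heart muscle, read 5099, 19571 and 945 on adult valve arrays 1, 2 and 3. Myl7, the atrial regulatory light chain, read 40.8, 14925 and 36.2 there. Myl4, the atrial essential light chain, read 53.4, 8240 and 30.8. Adult valve 2, the array with bright Nppa, was thus also the one with bright atrial light chains. Nppb was brightest on that array too. On adult valve arrays 1, 2 and 3 Nppb read 106, 2608 and 1275, and the heart muscle sum was 19883, 96592 and 6120. The part of heart muscle RNA in the Nppa and Nppb differences was not tested.

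Between the neonatal tissues, 10 of the 12 heart muscle genes had a fitted difference above 0, on the side of higher valve. Mybpc3, the cardiac myosin-binding protein C, was the 1 that was called (3.01 ± 0.88 in log2, limma, adjusted p = 0.023), and 0 were called lower, where 13.3% of all tested probe sets were called higher and 19.3% lower. The median log2 difference of the 12 was 1.09 against -0.0881 over all probe sets tested. Among the genes that differed least, Myh6 read 16672, 11201 and 18508 on neonatal aorta arrays and 16251, 20264 and 20071 on neonatal valve arrays, so that these groups overlapped. Myl7 overlapped too, at 12872, 9595 and 15844 in neonatal aorta and 4896, 16943 and 10733 in neonatal valve. On the same 6 arrays the highest Nppa signal of the aorta was 165 and the lowest of the valve 3848. The difference was 4.87 for Myh7, 3.53 for Myl3 and 2.04 for Ryr2, and none of these passed the threshold (adjusted p of 0.053, 0.25 and 0.19). In bulk tissue, fewer cells of a type and less RNA per cell cannot be told apart.

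Among genes of ventricular muscle, Myh7, the beta myosin heavy chain, read 191, 379 and 216 on neonatal aorta arrays and 16699, 1335 and 17670.1 on neonatal valve arrays, without overlap. On adult valve arrays it read 4121, 2890.4 and 39.8. Irx4, a transcription factor of ventricular muscle, read 4930, 38.8 and 2077 on neonatal valve arrays 1, 2 and 3 and at most 107 elsewhere. Neonatal valve 2, where Irx4 was dim and Myh7 dimmest of its group, had the brightest Nppa and Nppb of its group. In adult aorta, Myh6 read 6.63, 106 and 124. By age, 7 of the 12 heart muscle genes were called lower in adult aorta, where 5.37% of all probe sets were, and 3 (Tnnc1, Myl2 and Nkx2-5) in adult valve, where 5.21% were. None was called higher by limma. In aorta and valve, 9 and 8 of the 12 had an unadjusted p under 0.05. Of all 18552 probe sets tested, 4338 and 4938 did.

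**Figure D2:**
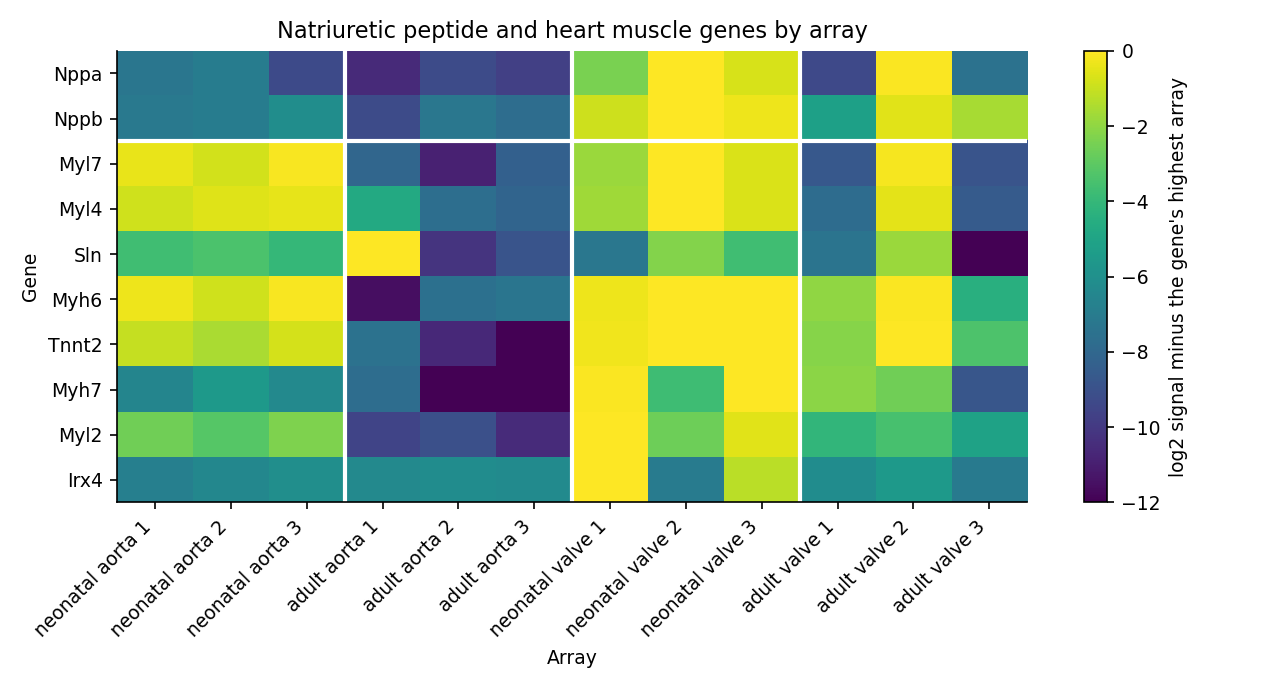
Heat map of Nppa, Nppb and 8 heart muscle genes (rows) over the 12 arrays (columns), coloured by the log2 signal minus that of the gene's brightest array and drawn no lower than the end of the scale. Between the neonatal tissues, Nppa, Nppb, Myh7 and Irx4 are brighter in valve, Irx4 on arrays 1 and 3 only, while Myh6 and Myl7 overlap, and among adult valve arrays Nppa and Myl7 are bright on array 2.

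Among the receptors, the one for ANP and BNP was dimmer in neonatal valve than in neonatal aorta, and the one for C-type natriuretic peptide was brighter in adult valve than in adult aorta. Npr1, the ANP and BNP receptor, read 752, 787 and 837 on neonatal aorta arrays and 153, 1441 and 1590.1 on adult aorta arrays. Its signal was 210.2, 170 and 112 on neonatal valve arrays and 418, 387 and 915 on adult valve arrays. All neonatal valve arrays lay below all arrays of neonatal aorta and of adult valve, and adult aorta 1 lay far below the other adult aorta arrays.

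Npr1 was 4.98-fold lower in neonatal valve than in neonatal aorta, a log2 difference of -2.32 ± 0.74 (limma, adjusted p = 0.032). The direction held in all 20 alternatives, but the adjusted p was 0.057 to 0.1 without any 1 array of these groups, 0.054 with quantile normalization, 0.051 with median centring, 0.23 with the control RNAs as a block and 0.29 over the 10 arrays that held them. By age in the valve the Npr1 difference was 1.74 ± 0.74 (adjusted p = 0.16). Without adult aorta 1, an array of neither valve group, it stayed at 1.74 with an SE of 0.33 and an adjusted p of 0.0069. It passed in no other alternative, with an adjusted p of up to 0.36 when 1 array was left out. In the adult tissues it was -0.41 ± 0.74 (adjusted p = 0.69), and -1.52 (adjusted p = 0.0094) without adult aorta 1. Markers of other tissue were high on that array. The summed signal of 7 skeletal muscle genes was 143942 there against 12190 and 17852 on the other adult aorta arrays, and its smooth muscle sum was 32217 against 126804 and 166752. Its sum of 5 squamous epithelium genes was 117234 against 526 and 554. Other arrays had such signals too. The squamous epithelium sum was 59644 on neonatal aorta 2, against 5155 and 378 on arrays 1 and 3. The sum of 4 thymocyte genes was 24873 on neonatal valve 3, against 2028 and 294 on arrays 1 and 2.

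Npr2, the receptor for C-type natriuretic peptide, read 770.1, 638 and 788 on neonatal aorta arrays and 351, 799 and 933 on adult aorta arrays. On neonatal valve arrays it read 714, 579.8 and 772, and on adult valve arrays 1494, 1383 and 1143. The 3 adult valve arrays were the brightest of the 12. Npr2 was 1.06 ± 0.32 in log2 higher in adult valve than in adult aorta (limma, adjusted p = 0.024), or 2.08-fold. Leaving out 1 array at a time, the difference ran from 0.63, without adult aorta 1, to 1.33. It was smaller but still called without adult aorta 1. Without adult valve 1 the difference was 0.98 (adjusted p = 0.072), and without adult valve 2 it was 1.03 (adjusted p = 0.06). Over the 10 arrays that held the control RNAs its adjusted p was 0.053.

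Npr2 also stood higher in adult than in neonatal valve without overlap, by 0.96 ± 0.32, which missed the threshold (limma, adjusted p = 0.085). Without adult aorta 1, an array of neither valve group, the same difference stayed at 0.96 with an SE of 0.19 and an adjusted p of 0.0081. It passed in no other alternative, with an adjusted p of up to 0.22 when 1 array was left out. In the aorta the age difference was -0.19 ± 0.32 (adjusted p = 0.78, 95% interval -0.90 to 0.52), and between the neonatal tissues it was -0.09 ± 0.32 (adjusted p = 0.85, 95% interval -0.80 to 0.62). The valve's age difference exceeded the aorta's by 1.15 ± 0.46 (adjusted p = 0.36).

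Npr3, the clearance receptor, read 124, 86.6 and 129 on neonatal aorta arrays and 19.3, 163 and 17.9 on adult aorta arrays. It read 80.0, 167 and 94.5 on neonatal valve arrays and 83.8, 169 and 46.5 on adult valve arrays. Neighbouring groups overlapped in every case, and no array read above the median of all signals, so it was not tested. Nppc, which encodes the ligand of Npr2, was also too dim for the test, at 10.3 to 74.5 in neonatal aorta, 30.3 to 76.2 in adult aorta, 40.0 to 72.0 in neonatal valve and 5.79 to 141 in adult valve.

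Pde5a, the phosphodiesterase that degrades cyclic GMP in vascular smooth muscle, was the member most clearly lower in valve. Its signal was 254, 356 and 375 on neonatal aorta arrays and 228, 373 and 617 on adult aorta arrays. On neonatal valve arrays it was 28.4, 40.8 and 35.7, and on adult valve arrays 49.8, 38.5 and 71.3. All valve arrays lay below all aorta arrays, and 5 of the 6 lay at the level of an absent RNA. Pde5a was lower in valve by a log2 difference of -3.23 ± 0.41 in neonates (limma, adjusted p = 0.0003) and -2.86 ± 0.41 in adults (adjusted p = 0.00049). With valve at that level neither is an exact fold, and against the bound of 54.6 the neonatal aorta was at least 5.92-fold higher.

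Neither age difference of Pde5a passed the threshold. It was 0.21 ± 0.41 in aorta (limma, adjusted p = 0.81, 95% interval -0.69 to 1.11) and 0.57 ± 0.41 in valve (adjusted p = 0.41, 95% interval -0.32 to 1.47). The tissue calls held in all 20 alternatives that keep the groups. The summed signal of 10 smooth muscle genes was 38829 to 57812 in neonatal aorta and 16192 to 23211 in neonatal valve. In adults it was 32217 to 166752 in aorta and 11018 to 77578 in valve, with overlap. Of these 10 genes, 2 were called lower in neonatal valve and 3 in adult valve, near the 19.3% and 19.9% of all probe sets called lower. Their part in the Pde5a difference was not tested.

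**Figure D3:**
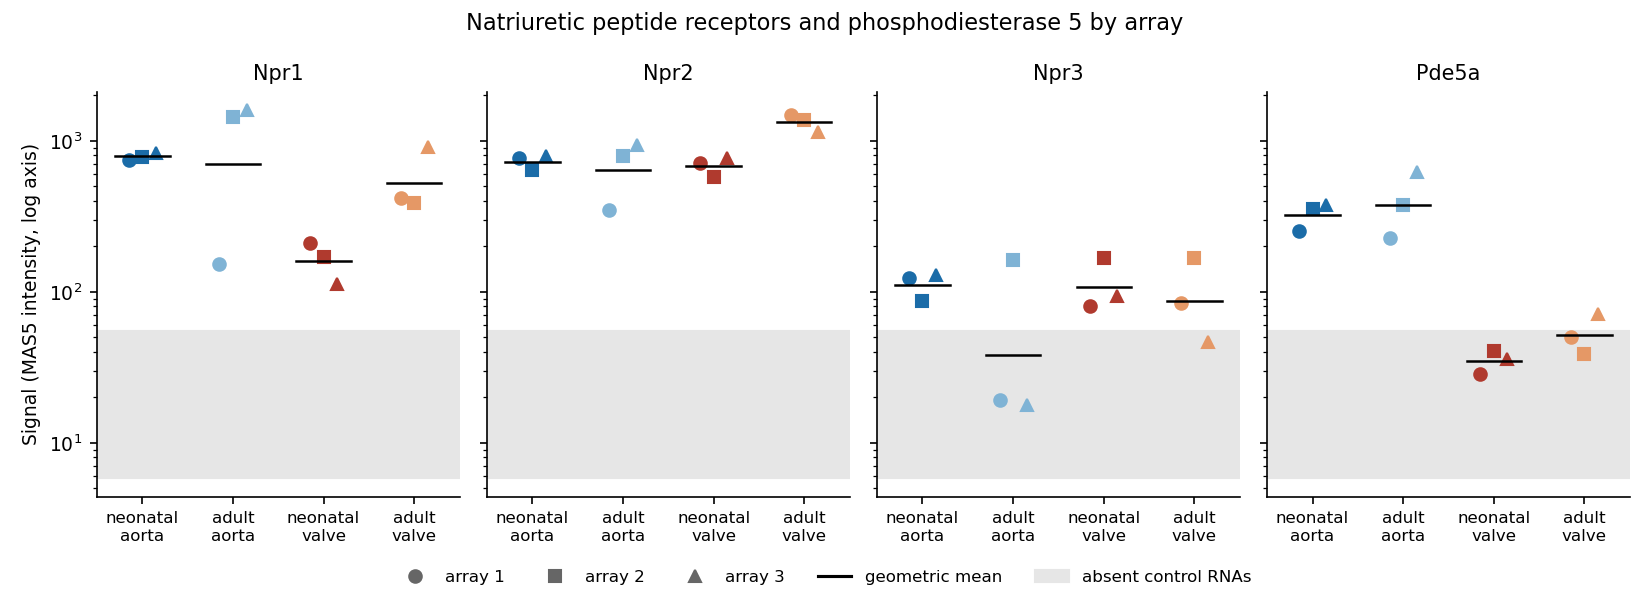
Signals of Npr1, Npr2, Npr3 and Pde5a on each array by group, on a log axis, with geometric means as lines and the level of absent control RNAs as a grey band. Npr1 is dimmest on the neonatal valve arrays (112 to 210.2), Npr2 is brightest on the adult valve arrays (1143 to 1494), the neighbouring groups of Npr3 overlap, and Pde5a on valve arrays (28.4 to 71.3) lies below all aorta arrays (228 to 617).

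The subunits of soluble guanylyl cyclase, the nitric oxide receptor, were bright in all groups and differed in no comparison at the threshold. Each had a pair of probe sets, of which the first here is the one with the higher mean signal. Gucy1a1, the alpha subunit, read 4471, 4128 and 4892 on neonatal aorta arrays and 852, 5351 and 6639 on adult aorta arrays with its first probe set. On valve arrays that probe set read 5091, 2705 and 3742 in neonates and 9197, 3552 and 1900 in adults. The adult groups were the most spread, with adult aorta 1 the dimmest and adult valve 1 the brightest of all 12 arrays. The log2 difference between tissues was -0.27 ± 0.72 in neonates (limma, adjusted p = 0.80) and 0.35 ± 0.72 in adults (adjusted p = 0.73).

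Gucy1b1, the beta subunit, read 1854, 1546 and 1797 on neonatal aorta arrays and 292, 2020.1 and 2411 on adult aorta arrays with its first probe set. It read 3846, 2185 and 2089 on neonatal valve arrays and 7675, 3772 and 1072 on adult valve arrays. The neonatal valve arrays lay above the neonatal aorta arrays without overlap, by 0.59 ± 0.80 (limma, adjusted p = 0.60). Adult valve 1 was again the brightest array and adult aorta 1 the dimmest. Between the adult tissues the difference was 1.48 ± 0.80 (adjusted p = 0.16). Leaving out 1 array at a time, it ran from 0.51 without adult aorta 1 to 2.26 without adult valve 3. The adjusted p of these fits ran from 0.044, without adult valve 3, to 0.54. The smooth muscle sum had the same order over the adult valve arrays, at 77578, 46424 and 11018 for arrays 1, 2 and 3. Between the neonatal tissues the order was opposite, with a sum of 16192 to 23211 in valve and 38829 to 57812 in aorta. The part of smooth muscle RNA in the Gucy1b1 signals was not tested.

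Over the 12 arrays, which share groups, the first probe set of Gucy1a1 correlated with the first and second of Gucy1b1 at r = 0.87 and 0.96. The second probe set of Gucy1a1 correlated with the same pair at r = 0.18 and 0.49. On chromosome 2 the genes lie with 1 gene between them, which does not code for protein in RefSeq. No difference by age passed the threshold for either subunit, and all their intervals included 0.

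The second probe set of each subunit read lower against the first on valve arrays. The second Gucy1a1 probe set read 969, 1356 and 1701 in neonatal aorta and 246, 1144 and 1280.4 in adult aorta. On valve arrays it read 253, 246 and 780 in neonates and 715, 252 and 175 in adults. Its log2 signal minus that of the first was -3.50 (SD 0.69, n = 6) in valve and -1.96 (SD 0.36, n = 6) in aorta, a difference of -1.54 (exact permutation test, two-sided, p = 0.0043, adjusted over 2 tests 0.0043). The second Gucy1b1 probe set read 1359, 1488 and 1695 in neonatal aorta, 243, 1360.4 and 1967 in adult aorta, 1881, 1039 and 1262 in neonatal valve and 4167, 1744 and 520 in adult valve. For Gucy1b1 the second minus the first was -0.98 (SD 0.15, n = 6) in valve and -0.29 (SD 0.20, n = 6) in aorta, a difference of -0.69 (exact permutation test, two-sided, p = 0.0022, adjusted 0.0043), the smallest p the test can give being 0.0022.

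These gaps were alike at both ages, at -1.57 in neonates and -1.52 in adults for Gucy1a1 and at -0.75 and -0.64 for Gucy1b1. The beta-actin ratio of 3′ to 5′ signal differed between the same arrays, and its part was not tested. With the second probe set alone Gucy1a1 was dimmer in neonatal valve than in neonatal aorta without overlap, at a difference of -1.84 ± 0.70 in log2 (limma, adjusted p = 0.065). That difference passed the threshold without adult aorta 1 (adjusted p = 0.021), without neonatal valve 3 (-2.39, adjusted p = 0.039) and without adult valve 1 (adjusted p = 0.049). Adult aorta 1 and adult valve 1 are in neither neonatal group and enter only through the shared estimate of the spread. The other 17 alternatives did not pass, with an adjusted p of up to 0.18 when 1 array was left out. With the control RNAs as a block the difference was -1.41, and over the arrays that held those RNAs it was also -1.41. Both of these fits rest on neonatal aorta 1 alone for that group, and neither passed. Between the adult tissues the second probe set passed only without adult aorta 1 (-1.94, adjusted p = 0.028). The first probe set did not pass in any of these settings.

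**Figure D4:**
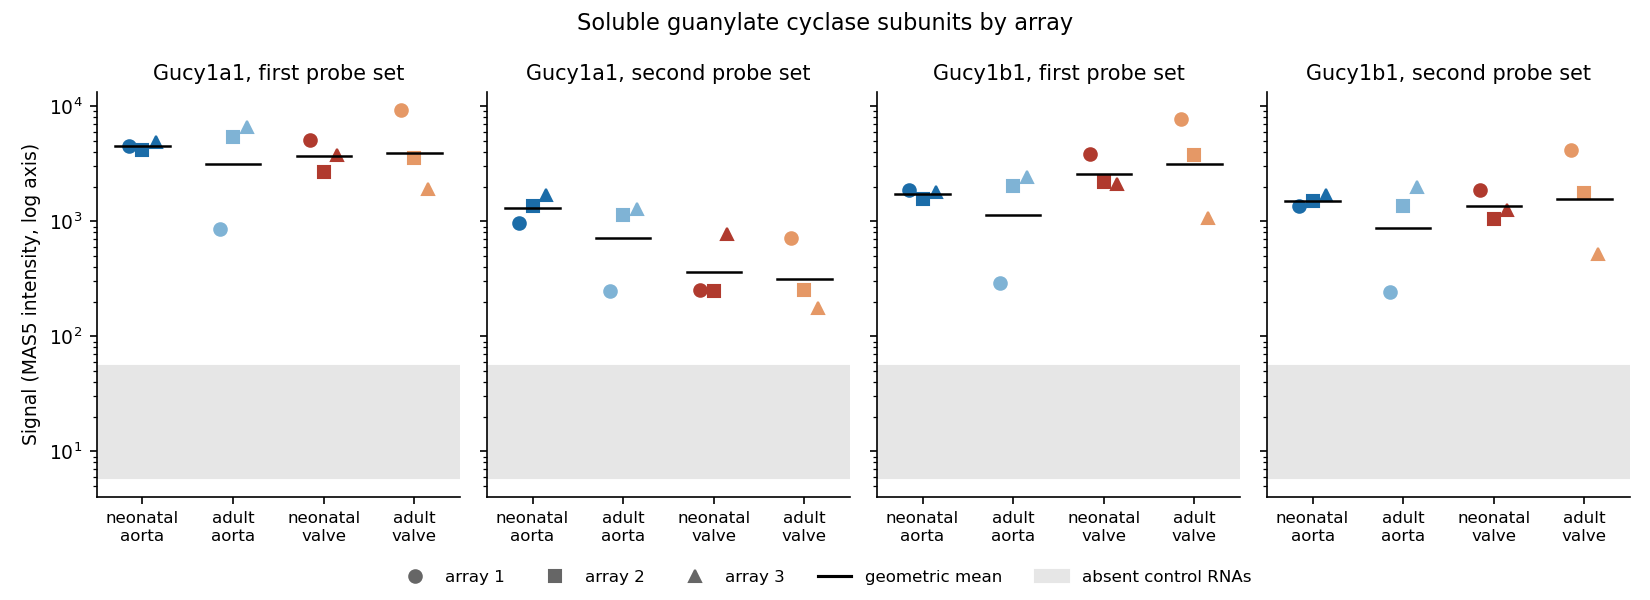
Signals of the probe sets of Gucy1a1 and Gucy1b1 on each array by group, on a log axis, with geometric means as lines and the level of absent control RNAs as a grey band. The aorta and valve groups overlap for the first probe set of Gucy1a1 and the second of Gucy1b1, while the second of Gucy1a1 is dimmer on valve than on aorta arrays in neonates (246 to 780 against 969 to 1701).

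Counted over the set, differences lay between the tissues. Between neonatal valve and neonatal aorta, 4 of the 9 probe sets were called (2 higher and 2 lower), where 32.6% of all tested probe sets were called, 13.3% higher and 19.3% lower. Between adult valve and adult aorta 3 of 9 were called (2 higher and 1 lower), where 37.1% of all were called, 17.3% higher and 19.9% lower. The share of members called between the tissues was therefore near that of the whole array. With age 0 of 9 were called in aorta, where 7.31% of all were (1.94% higher, 5.37% lower), and 0 of 9 in valve, where 9.21% were (4.00% higher, 5.21% lower). For the difference between the age differences, 0 of 9 were called by limma, and of all probe sets 0.0593% were (0.0485% higher, 0.0108% lower). At an unadjusted p under 0.05 the counts of members were 0 and 3 for age in aorta and valve, 5 and 4 for the tissues in neonates and adults, and 1 for the difference of age differences. Over all 18552 probe sets tested, the counts in the same comparisons were 4338 and 4938, 8065 and 8811, and 2170.

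Arrays of the groups did not overlap for 3 members higher and 3 lower between the neonatal tissues, against 26.2% and 33.5% of all probe sets. The counts were 2 higher and 1 lower between adult tissues (21.1% and 23.2% of all). By age they were 0 higher and 1 lower in aorta (10.7% and 20.2%), and 2 higher and 0 lower in valve (14.9% and 18.5%). The 1 counted in aorta was Nppb, whose signals there lay at or next to the level of an absent RNA and have no order. The median log2 difference of the members was -0.618 and 0.205 for age in aorta and valve, and -0.158 and 0.846 for the tissues in neonates and adults. Over all probe sets tested the medians were -0.0831, -0.0382, -0.0881 and -0.0482.

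**Figure D5:**
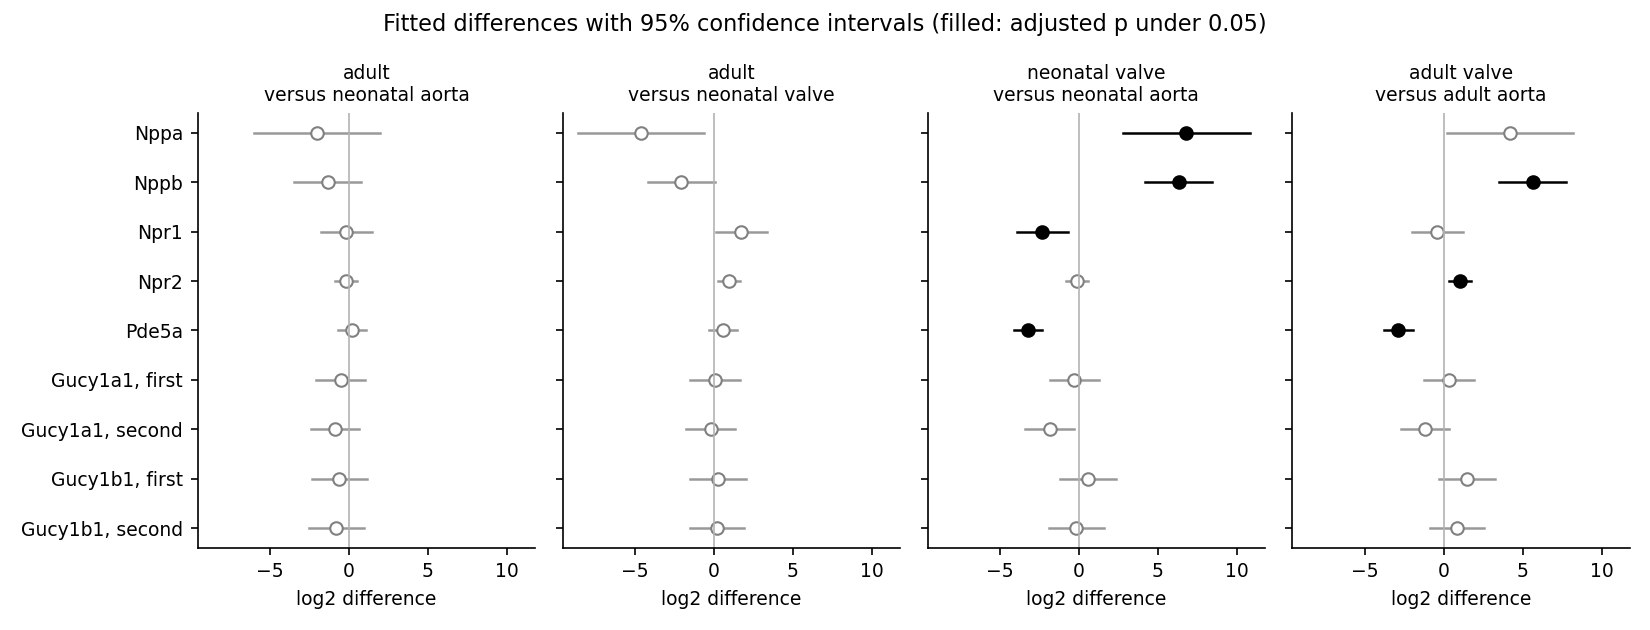
Log2 differences of the 9 tested probe sets in the 4 comparisons of 2 groups, with 95% intervals and filled points where the adjusted p was under 0.05. Nppb stands above 0 and Pde5a below 0 between the tissues at both ages, and no point is filled in the comparisons by age.

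In the wider pathway, 47 further genes were listed by role, of which 44 had a probe set and 29 were tested. Among single genes, the alternative settings were read for the members only, so calls of these further genes were not checked in them. Calls among them were 0 higher and 2 lower for age in aorta, 1 and 1 for age in valve, and 0 and 3 between the tissues at each age. Of all tested probe sets 7.31%, 9.21%, 32.6% and 37.1% were called in these comparisons, so that the count of 3 of 29 between the tissues was below the share of the whole array. No gene of ligand processing (3 tested) or of nitric oxide supply (6 tested) was called by limma in any comparison, with 0 or 1 at an unadjusted p under 0.05, and none of 6 further cyclase genes passed the filter. Of 7 phosphodiesterase and export genes, 1 was lower in adults in each tissue and 2 were lower in valve at each age. Of 13 kinase and target genes, 1 was called in each comparison of 2 groups, higher with age in valve and lower in the other 3.

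Pde9a, a phosphodiesterase specific for cyclic GMP, fell with age in both tissues. It read 270.2 to 380 in neonatal and 21.5 to 105 in adult aorta, a log2 difference of -2.73 ± 0.63 (limma, adjusted p = 0.024). In valve it read 197 to 235 in neonates and 16.9 to 76.3 in adults, a difference of -2.71 ± 0.63 (adjusted p = 0.024). The geometric means of adult aorta (46.7) and adult valve (32.9) lay at the level of an absent RNA, so neither difference is an exact fold. Pde2a, a phosphodiesterase that cyclic GMP stimulates, was lower in valve by -1.04 ± 0.29 in neonates (adjusted p = 0.019) and -0.90 ± 0.29 in adults (adjusted p = 0.032). Pde6d, a carrier of lipid-modified proteins first known as a phosphodiesterase subunit, was lower in valve by -0.84 ± 0.22 (adjusted p = 0.014) and -1.14 ± 0.22 (adjusted p = 0.0027).

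Channels that lie downstream of cyclic GMP were the other calls. Kcnma1, the pore of the large-conductance potassium channel, rose with age in valve by 3.33 ± 0.76 in log2 (limma, adjusted p = 0.022), with signals of 281 to 572 in neonates and 1930 to 8062 in adults. Its smooth muscle subunit Kcnmb1 read 216 to 1726 in adult aorta and 8.19 to 299 in adult valve (-3.61 ± 1.18, adjusted p = 0.033). Trpc6, a cation channel, fell with age in aorta (-1.84 ± 0.49, adjusted p = 0.044) and was lower in neonatal valve than in neonatal aorta (-1.43 ± 0.49, adjusted p = 0.043).

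The genes with the most similar pattern to each member were found by Pearson's r of log2 signals over the 12 arrays, which share 4 groups. For Nppa they were Epha4 (r = 0.94), Preb (0.94) and Dclre1a (0.92), and for Nppb Sorbs2 (0.96), Slc20a1 (0.95) and Eml4 (0.95). For Npr1 they were Ninj1 (0.97), Vim (0.95) and Mgp (0.95), and for Npr2 RGD1305537 (0.97), Adarb1 (0.94) and Fchsd2 (0.93). Pde5a was closest to Spryd3 (0.99), Tmsb4x (0.99) and Atp2b4 (0.98). Gucy1a1 was closest to Prdm16 (0.97), Csrp2 (0.94) and C7h12orf75 (0.94), and Gucy1b1 to Per2 (0.95), Mtus2 (0.94) and Adcy6 (0.93). Within the set, Pde5a ran opposite to Nppb (r = -0.88) and Nppa (r = -0.77).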

How the data were processed

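The deposited values are an intensity on a linear scale, 1 signal for each probe set, which the authors made with the MAS5 algorithm of Affymetrix Expression Console, per the submitters' processing notes. No version is stated there. Arrays were already scaled alike, with a trimmed mean of 500.1 to 500.2 each. Median signals were 183 to 202 on aorta and 133 to 170 on valve arrays, and 3 arrays per group limit the precision. Poly-A RNA was labelled by T7 in vitro transcription, per the labels' protocols.

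From 31099 probe sets, 57 controls were left out. Of the other 31042, 20826 carried 1 gene symbol, 9780 none and 436 several. A signal under 1 was raised to 1 before log2 was taken. The 18552 probe sets (59.8%) with a signal above the median of all values (172) on at least 3 of 12 arrays were tested with limma 3.58.1 in R 4.3.3, with 1 mean per group over all 12 arrays and an intensity trend. A probe set was called at an adjusted p under 0.05 (Benjamini-Hochberg over all probe sets tested, two-sided). The fit was tested on simulated data. Alternatives were quantile normalization, median centring, log2 of the signal plus 32, no filter, no trend, a replicate block, the control RNAs as a block, arrays that held those RNAs, groups by description, and leaving out each array.

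The members and lists were chosen with earlier results of these data known. All members were named. Of the wider list, Nppc and up to 4 genes per comparison by smallest adjusted p among called probe sets were named. Beyond these, heart and other marker genes are given where a result turns on them, and were picked after their values were seen. Coordinates come from RefSeq promoters on GRCr8, and the genome of the array design was not used here.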

Additional observations from a re-analysis of the deposited data

How the results depend on the processing

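Over 45 member differences and 20 alternatives, 848 of 900 values kept direction and side of the threshold. The 7 called values reversed in 0 of 140 and lost the call in 16, which the report gives for Nppa, Npr1 and Npr2, while Nppb and Pde5a kept theirs throughout. Median centring turned 3 uncalled differences between neonatal valve and neonatal aorta to 0.06 for the first Gucy1a1 probe set, 0.17 for the second Gucy1b1 probe set and 0.24 for Npr2. It moved the median of all probe sets from -0.0881 to 0.245 for the neonatal tissues and from -0.0482 to 0.341 for the adult ones. Calls then split into 4072 higher and 2381 lower (2461 and 3582 without centring) for the neonatal tissues, 5308 and 2264 (3207 and 3684) for the adult ones, and 873 and 670 (742 and 967) for age in valve.

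Leaving out 1 array at a time turned only uncalled differences. For age in aorta the ranges were -1.07 to 0.41 for the first Gucy1a1 probe set, -1.17 to 0.35 and -1.39 to 0.12 for the first and second Gucy1b1 probe sets, -0.75 to 0.94 for Npr1, -0.46 to 0.24 for Npr2 and -0.15 to 0.57 for Pde5a. For age in valve they were -0.52 to 0.62 and -0.80 to 0.34 for the first and second Gucy1a1 probe sets, and -0.37 to 1.05 and -0.51 to 1.00 for those of Gucy1b1. Between neonatal tissues they were -0.40 to 0.03 for the second Gucy1b1 probe set and -0.19 to 0.03 for Npr2. Between adult tissues they were -0.59 to 0.89 for the first Gucy1a1 probe set, -1.52 to 0.17 for Npr1 and -0.07 to 1.64 for the second Gucy1b1 probe set. For the valve's age difference minus the aorta's the ranges were -0.32 to 1.16 and -0.09 to 1.22 for the first and second Gucy1a1 probe sets, -0.08 to 1.67 for the first Gucy1b1 probe set and -1.65 to 0.66 for Nppb.

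Counts over all probe sets depended more on the arrays used. With the control RNAs as a block, 69 were called for age in aorta (1357 without), 1416 between neonatal tissues (6043) and 1 for the difference of age differences (11). Over arrays that held those RNAs the counts were 14 for age in aorta, 663 for age in valve (1709), 641 between neonatal tissues and 0 for the difference of age differences, where limma gave 908 at an unadjusted p under 0.05. Without the trend the last count was 7. Leaving out 1 array gave 431 to 2485 for age in aorta, 662 to 3093 for age in valve, 4101 to 7386 between neonatal tissues, 5692 to 7048 for the adult ones (6891) and 1 to 37 for the difference of age differences. Grouping by the description entries exchanges comparisons: 6043 for age in aorta, 6891 for age in valve, 1357 for the tissues in neonates and 1709 in adults. Differences given here between neonatal valve and neonatal aorta would then be those of age in aorta, and those between adult tissues would be those of age in valve. The cause of these changes was not tested.

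Replicate numbers did not pair the arrays: deviations of 18 same-numbered pairs correlated at -0.314 to 0.237, 3 of them over 0.1, and 3 of 12 arrays correlated best with their own number. With the replicate block the counts were 1128 and 1458 for age in aorta and valve, 5720 and 6626 between neonatal and adult tissues and 1 for the difference of age differences, and no member gained or lost a call.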
